A study of Mus musculus with 3 samples.

Results

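Among sorted tdTomato+ cells from injured mouse retinas, 371 of 24672 cells (1.5%) carried transcripts of the cone photoreceptor at a clear level. These cells, called cone-transcript cells here, were chosen because Pde6h, the inhibitory subunit of the cone phosphodiesterase, reached at least 5 unique molecular identifiers (UMIs) per 10,000 of the cell's total. A UMI marks 1 captured RNA molecule. Run 1 held 85 of them (1.11% of its cells), run 2 held 105 (1.19%) and run 3 held 181 (2.21%). They were set against 2 other classes of cells from the same runs. The 1299 rod-high cells had at least 5 UMIs per 10,000 of Gngt1, the rod transducin gamma subunit, and 0 Pde6h UMIs. The 14418 cone-low cells had 0 Pde6h UMIs, under 5 per 10,000 of Gngt1 and under 2 per 10,000 of Igfbp2.

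All cells came from adult mice of the genotype Glast-CreERT+/tg, Yap5SA+/tg and ROSA26R-tdTomato+/tg, given tamoxifen and then an injection of N-methyl-D-aspartate (NMDA), an excitotoxin that kills retinal neurons. Glast drives Cre in Müller glia, the radial glia of the retina, so tamoxifen switches on tdTomato and Yap5SA, a form of the YAP coactivator that the Hippo kinases cannot restrain. Cells were sorted for tdTomato 2 days after NMDA and run on 10X droplets in 3 runs. No uninjured, uninduced or Yap5SA-free retina was analysed here, so every comparison is between cells of the same run, and all classes share the genotype, the tamoxifen and the injury. The labels do not say that the runs are separate animals, so p-values measure only the spread between runs, which may be technical. The labels call the sorted cells Müller glia, while the cone-transcript cells held Müller transcripts and cone transcripts in the same barcodes. In summed RNA, more cells with a transcript and more transcript per cell cannot be told apart.

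Cones are the photoreceptors of daylight and colour vision. Light taken up by a cone opsin activates cone transducin (Gnat2, Gnb3 and Gngt2), which releases the cone phosphodiesterase (Pde6c) from its inhibitor Pde6h, and the fall in cyclic GMP closes the channel formed by Cnga3 and Cngb3. Arr3 is the cone arrestin that stops the opsin, Opn1sw is the short-wavelength opsin and Opn1mw the middle-wavelength opsin, and many mouse cones make both. Rods run a parallel cascade with their own proteins, and CRX, a homeodomain factor of rods and cones, binds cores such as TAATCC in the promoters of both.

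Promoters of 3 cone genes with such a core are printed because their transcripts define or lead the cells described here. The RefSeq promoter table (build GRCm38.p6, 250 bases before to 50 after each start) held 10 of the 14 genes of the cone list. A pair of cores was searched on both strands, TAATCC (reverse complement GGATTA) and TAAGCC (reverse complement GGCTTA). They cannot overlap at the same place on the same strand, and matches are in capitals. TAATCC was found in 7.06% of the 32851 promoters of the table, TAAGCC in 9.48% and either in 15.8%. Those shares are per entry, and 8 of the 17 entries of the cone list held a match. By gene, which is another unit, at least 1 entry of 7 of the 10 cone genes held a match. The entries of Arr3, Opn1mw and Ccdc136 held none. A match is a string of letters only, and binding was not measured.
Pde6h, chr6:136954273-136954572, plus strand: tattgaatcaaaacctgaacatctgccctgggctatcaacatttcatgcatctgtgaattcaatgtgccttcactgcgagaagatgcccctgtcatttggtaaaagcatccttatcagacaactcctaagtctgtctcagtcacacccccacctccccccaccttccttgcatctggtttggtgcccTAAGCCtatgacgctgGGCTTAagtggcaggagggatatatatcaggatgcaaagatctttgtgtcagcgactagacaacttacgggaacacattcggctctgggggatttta
Opn1sw, chr6:29380464-29380763, minus strand: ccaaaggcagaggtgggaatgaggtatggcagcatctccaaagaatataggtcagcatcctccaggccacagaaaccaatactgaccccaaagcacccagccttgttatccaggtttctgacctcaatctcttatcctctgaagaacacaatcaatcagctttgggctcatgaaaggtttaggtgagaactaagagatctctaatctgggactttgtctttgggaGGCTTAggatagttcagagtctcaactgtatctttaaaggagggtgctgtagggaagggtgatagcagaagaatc
Gnat2, chr3:108092816-108093115, plus strand: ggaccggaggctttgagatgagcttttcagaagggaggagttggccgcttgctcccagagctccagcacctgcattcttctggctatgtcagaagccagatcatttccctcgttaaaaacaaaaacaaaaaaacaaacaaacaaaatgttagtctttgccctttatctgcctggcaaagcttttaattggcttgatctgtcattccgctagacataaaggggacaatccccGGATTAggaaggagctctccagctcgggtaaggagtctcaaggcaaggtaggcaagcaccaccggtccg
The matches in the Pde6h promoter lay 63 and 47 bases before the annotated start, that of Opn1sw 25 bases before and that of Gnat2 19 bases before. In the GENCODE M21 annotation of the same genome the protein-coding genes Arr3 (chromosome X, 100605497 to 100618493, plus strand) and Opn1mw (chromosome X, 74127464 to 74150760, plus strand) lie apart from Pde6h and Opn1sw on chromosome 6 and Gnat2 on chromosome 3.

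The value that chose the cells spread widely, and is given with no test. Pde6h per 10,000 had a median of 14.4 and a highest value of 103.9 over the 371 cells, or 2 to 87 Pde6h UMIs with a median of 16. Of all 24672 cells, 22254 held 0 Pde6h UMIs. The 42 cells just inside the threshold, at 5 to under 6 per 10,000, held a median of 4.5 Pde6h UMIs and 4.5 UMIs of the 13 other cone genes. The 42 cells just outside it, at 4 to under 5 per 10,000, held medians of 4 and 3. The limit therefore cut through a range of values.

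The rest of the cone cascade came with Pde6h. Of the 14 genes of the cone list, 13 besides Pde6h were tested, and all 13 were higher in cone-transcript cells than in cone-low cells, with a median log2 change of 6.70. Over all 14362 genes tested in that comparison the median log2 change was -0.04, and 26.4% were called at an adjusted p under 0.05 (11.4% higher and 15.1% lower) in edgeR's quasi-likelihood test with the run as a block. Against rod-high cells all 13 were again higher, with a median of 6.85, or 6.37 with Cnga3 at its lower bound. In both comparisons the low-count filter keeps a gene that passes in 1 class alone. Rod-high cells held 11 Arr3, 3 Pde6c and 0 Cnga3 UMIs, so these genes were tested through their level in cone-transcript cells. The filter thus favours that direction in the count of 13. Against rod-high cells 8.58% of 11155 genes were called (5.31% higher and 3.27% lower), and the median of all genes was -0.01. Both comparisons use the same cone-transcript profiles, so they are not independent. Levels below are counts per 1000000 UMIs (CPM) in the summed RNA of a class and run, and they are compared between classes, not between genes.

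Arr3 reached 209, 172 and 154 CPM in cone-transcript cells of runs 1, 2 and 3, against 0.512, 0.527 and 0.530 CPM in cone-low cells. Every value of the cone-transcript cells lay far above every value of the cone-low cells, which held for 22.5% of all genes tested (and the reverse for 7.93%), with a log2 change of 8.20 ± 0.15 (standard error, adjusted p 2.25e-77, edgeR). Rod-high cells had 0.698, 0.916 and 1.33 CPM of Arr3, also with no overlap, as for 12.9% of genes tested in that comparison (4.12% the other way). Gnat2, the cone transducin alpha subunit, reached 266, 215 and 207 CPM in cone-transcript cells, against 1.42, 1.40 and 1.41 CPM in cone-low cells (log2 change 7.14 ± 0.12). Pde6c, the catalytic subunit that Pde6h inhibits, reached 121, 96.9 and 77.7 CPM in cone-transcript cells, against 0.163, 0.218 and 0.323 CPM in cone-low cells (log2 change 8.47 ± 0.24). All 3 genes were highest in run 1, and for none did the classes overlap.

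Of the opsins, Opn1mw varied between runs in summed RNA and Opn1sw did so less, although the share of cells with Opn1sw did vary. Opn1mw reached 664, 298.5 and 262.5 CPM in cone-transcript cells, against 0.908, 1.32 and 1.96 CPM in cone-low cells (log2 change 7.88 ± 0.14). Its run 1 value stood well above those of runs 2 and 3. Opn1sw reached 296, 349.5 and 322 CPM in cone-transcript cells, against 1.19, 2.02 and 1.61 CPM in cone-low cells (log2 change 7.45 ± 0.11), with no such gap between runs in CPM. The run 1 value leaned on few cells, since single cells of that run held 87, 71 and 37 Opn1sw UMIs. At an equal depth of 3500 UMIs, Opn1sw was seen in 15.3%, 24.8% and 27.6% of cone-transcript cells of runs 1, 2 and 3. Opn1mw was seen in 68.2%, 42.9% and 40.3% of them. Rod-high cells had 2.09, 0.305 and 3.99 CPM of Opn1mw and 1.63, 2.75 and 1.6 CPM of Opn1sw.

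The transducin beta and gamma subunits were less particular to these cells. Gngt2 reached 811, 605 and 578 CPM in cone-transcript cells, against 8.60, 4.32 and 4.38 CPM in cone-low cells. In 48 microglia-gated cells, chosen by complement C1q transcripts at 10 or more and Glul with Rlbp1 under 5 per 10,000, Gngt2 had 313, 166 and 464 CPM, so it was not a transcript of cones alone. Gnb3, which ON bipolar cells also make, reached 615, 378 and 404 CPM in cone-transcript cells, 53.1, 48.8 and 45.2 CPM in rod-high cells and 14, 14.7 and 16.8 CPM in cone-low cells.

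The scarcer members of the list followed. Cnga3 summed to 32 UMIs in the cone-transcript cells, against 5 in the cone-low cells and 0 in the rod-high cells. Against rod-high cells that is at least 31.3-fold higher, with a floor of 3 counts over the class. Cngb3, the second channel subunit, had a log2 change of 5.20 ± 0.32 against cone-low cells, and the potassium channel subunit Kcne2 6.38 ± 0.41. Rxrg, a nuclear receptor that sets opsin choice in cones, changed by 3.80 ± 0.41 and Thrb, the thyroid hormone receptor that directs middle-wavelength opsin, by 1.86 ± 0.16. Ccdc136, a coiled-coil gene next to Opn1sw, moved least, at 0.45 ± 0.12 (adjusted p 0.00175, edgeR), was not called without run 3 (0.35), and among the 38 and 7316 cells of these classes that the authors kept in their log table it was -0.21.

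**Figure D1:**
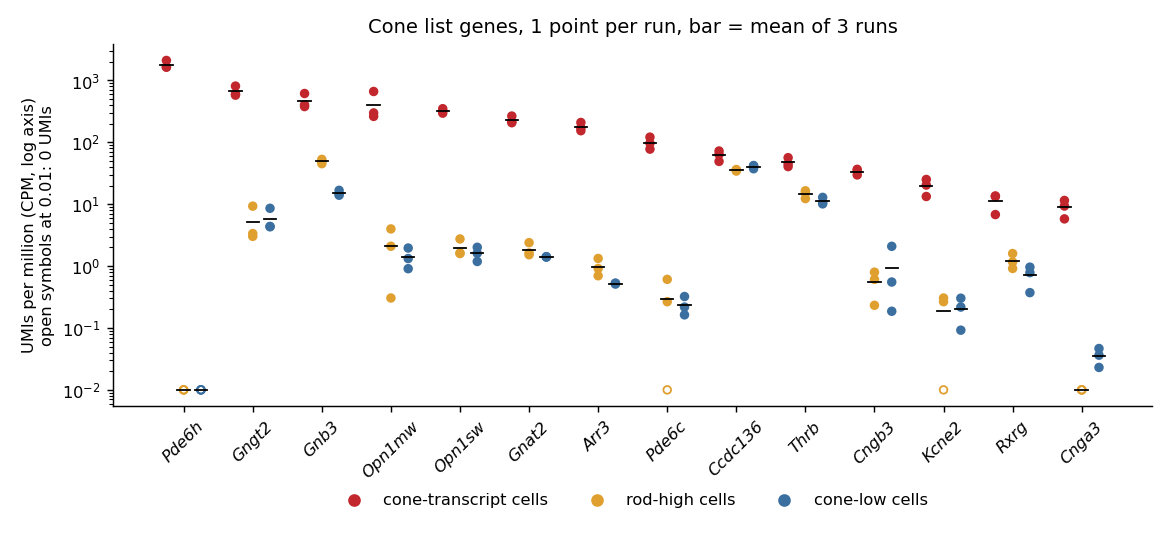
CPM (log axis) of the 14 genes of the cone list in the summed RNA of cone-transcript cells (red), rod-high cells (orange) and cone-low cells (blue), with 1 point per run and a bar at the mean of the 3 runs. Open symbols at 0.01 stand for 0 UMIs, and Pde6h is 0 by definition in the orange and blue classes. Arr3 sits between 154 and 209 CPM in cone-transcript cells and near 0.5 CPM in cone-low cells, while Ccdc136 and Thrb are closest between classes.

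Cell by cell, at an equal depth of 3500 UMIs, the same pattern held. Arr3 was seen in 37.6% ± 5.57 of cone-transcript cells (mean and SD of 3 runs), against 0.181% ± 0.0379 of cone-low cells. Gnat2 was seen in 48.5% ± 3.88 of cone-transcript cells and 0.419% ± 0.111 of cone-low cells. Opn1mw was seen in 50.5% ± 15.4 of cone-transcript cells and 0.490% ± 0.195 of cone-low cells, and Opn1sw in 22.6% ± 6.45 and 0.483% ± 0.119 of those classes. At full depth Arr3 was seen in 64.5% of cone-transcript cells and 0.512% of cone-low cells, and Opn1mw in 66.6% and 1.22% of those classes. In microglia-gated cells, which should lack cone RNA, Arr3, Opn1sw and Gnat2 were each seen in 0 of 48 cells at 3500 UMIs, which allows a share of up to 6.25%, and Opn1mw was seen in 1 of 48 (2.08%). At full depth Gnat2 was seen in 3 of the 48 (6.25%), Opn1mw in 2, Pde6h in 2, Opn1sw in 1 and Arr3 in 0. With 48 cells, 1 cell is already 2.08%, so these values cannot be weighed against the shares of 0.181% to 0.490% in cone-low cells. Median totals were 9064 UMIs in cone-transcript cells, 9143 in cone-low cells and 16955 in microglia-gated cells.

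For some cone genes, cone-low cells held UMIs in another proportion to Arr3 than cone-transcript cells did. For each Arr3 UMI the cone-transcript cells held 1.87 Opn1sw UMIs (95% interval 1.70 to 2.06), against 3.14 (2.40 to 4.13) in cone-low cells. Gnat2 stood at 1.30 per Arr3 UMI (1.17 to 1.44) in cone-transcript cells and 2.69 (2.05 to 3.56) in cone-low cells. Gngt2 stood at 3.72 (3.41 to 4.06) in cone-transcript cells and 7.76 (6.08 to 10.0) in cone-low cells after microglia-gated cells were left out. For Opn1mw, at 2.15 (1.96 to 2.36) in cone-transcript cells and 2.66 (2.03 to 3.53) in cone-low cells, and for Pde6c, at 0.545 (0.478 to 0.620) and 0.446 (0.287 to 0.681) in those classes, the intervals overlapped. The cone-low ratios all rest on the same 74 Arr3 UMIs in 14418 cells, so they are not independent of each other. Rod-high cells, on 11 Arr3 UMIs, stood at 2.00 (0.93 to 4.57) for Opn1sw, 1.91 (0.88 to 4.38) for Gnat2 and 5.36 (2.79 to 11.3) for Gngt2. These intervals overlapped those of the cone-transcript cells, as did those of Opn1mw and Pde6c. The intervals are exact binomial ones, take each UMI as independent and cover counting error only.

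Most cone-transcript cells with an opsin held a single one. At full depth 56 of the 371 cells held Opn1sw alone, 189 held Opn1mw alone, 46 held both and 80 held neither. Among the 167 cells with at least 5 opsin UMIs, Opn1sw made up 80 to 100% of them in 58 cells and under 20% in 95, and only 14 cells lay between. The runs differed: cells with Opn1sw alone were 3 of 85 in run 1 (3.53%), 13 of 105 in run 2 (12.4%) and 40 of 181 in run 3 (22.1%). Cells with Opn1mw alone made up 63.5%, 50.5% and 45.3% of the cone-transcript cells of runs 1, 2 and 3. At 3500 UMIs the shares with Opn1sw alone were 3.53%, 15.2% and 23.8%, so the order of the runs was the same at equal depth. With 3 runs and no label that separates them, this is a description.

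**Figure D2:**
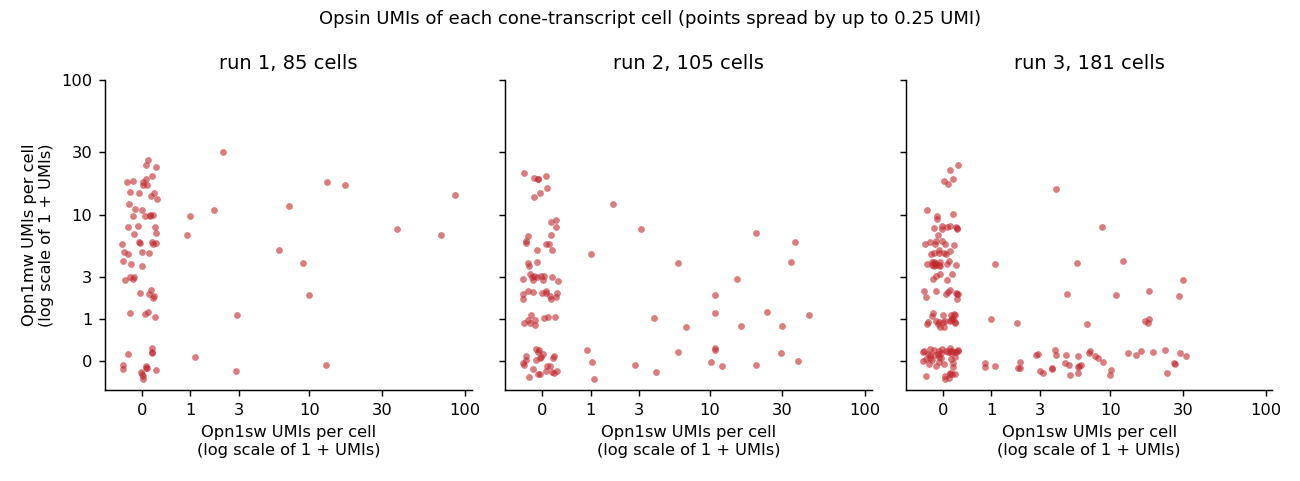
Opn1sw UMIs (x axis) and Opn1mw UMIs (y axis) of each cone-transcript cell, on a log scale of 1 + UMIs, with 1 panel per run; points are moved by up to 0.25 UMI so that cells with equal counts can be seen. Most cells lie along one axis or the other, run 1 has 3 cells with Opn1sw alone, and run 3 has 40.

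Transcripts of the Müller markers were seen in nearly all of these cells, and a single UMI of them was also frequent in cells that should lack them. Glul, the glutamine synthetase of Müller glia, Rlbp1, which carries retinoids, and Apoe, the lipid carrier that glia secrete, were all at 0 in none of the 371 cone-transcript cells and in 5 of the 14418 cone-low cells. At 3500 UMIs Glul was seen in 92.5% ± 0.81 of cone-transcript cells and 96.6% ± 0.371 of cone-low cells, and Rlbp1 in 89.8% ± 3.45 and 95% ± 0.462 of those classes (mean and SD of 3 runs). Microglia-gated cells, which were chosen for little Glul and Rlbp1, showed Glul in 20 of 48 cells (41.7%) and Rlbp1 in 2 of 48 (4.17%) at that depth, and in 81.2% and 41.7% of cells at full depth. Fewer than 10 UMIs per 10,000 of the 3 together were found in 10 of 371 cone-transcript cells (2.70%), 3.77% of rod-high cells, 1.96% of cone-low cells and 3 of 48 microglia-gated cells (6.25%). Fewer than 50 per 10,000 were found in 27.0% of cone-transcript cells, 18.2% of rod-high cells, 19.6% of cone-low cells and 47.9% of microglia-gated cells. Apoe is also a microglial transcript and was seen in all 48 microglia-gated cells, so these limits on the sum do not separate Müller RNA from it.

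The median cell held 82, 92 and 72 UMIs of Glul, Rlbp1 and Apoe together in cone-transcript cells of runs 1, 2 and 3, against 103, 94 and 90 in cone-low cells. The value was lower in cone-transcript cells of all 3 runs, and the log2 ratio of the medians, averaged over the 3 runs, was -0.23 (exact paired permutation test, two-sided p 0.25, the smallest that 3 pairs allow). The gap turned when the limits that define the cone-low cells were put on the cone-transcript cells too. Cone-transcript cells with Gngt1 under 5 and Igfbp2 under 2 per 10,000 held 109 UMIs (mean of the run medians), against 95.7 in cone-low cells, and the log2 ratio averaged over the runs was 0.16. Rod-high cells held 95, 103.5 and 81 UMIs.

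Total UMIs were close between the classes, but the rules that set the classes bear on totals. Pde6h was scaled to the cell's total, and 0 Pde6h UMIs are likelier in a cell with fewer UMIs. The cone-low limit also left out cells with Igfbp2 at 2 or more, whose median was 18916 UMIs against 9130 in the other cells. The median cone-transcript cell held 9808, 10299 and 8455 UMIs in runs 1, 2 and 3, against 8840, 10163 and 8520 in cone-low cells. The means of the run medians were 9521 ± 955 UMIs in cone-transcript cells and 9174 ± 871 in cone-low cells (SD, n = 3 runs), and the log2 ratio averaged over the runs was 0.05 (exact paired permutation test, two-sided p 0.5). The 95th percentile of total UMIs was 20791 in cone-transcript cells, 14555 in rod-high cells and 16938 in cone-low cells, so the upper tail was longer in cone-transcript cells. For genes per cell the means of the run medians were 3151 ± 248 in cone-transcript cells and 2860 ± 164 in cone-low cells (SD, n = 3 runs). For mitochondrial UMIs they were 6.07% ± 0.427 and 5.28% ± 0.497 in those classes. How far droplets with more than 1 cell, or RNA taken up from dying cones, gave rise to these profiles was not tested beyond these values.

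**Figure D3:**
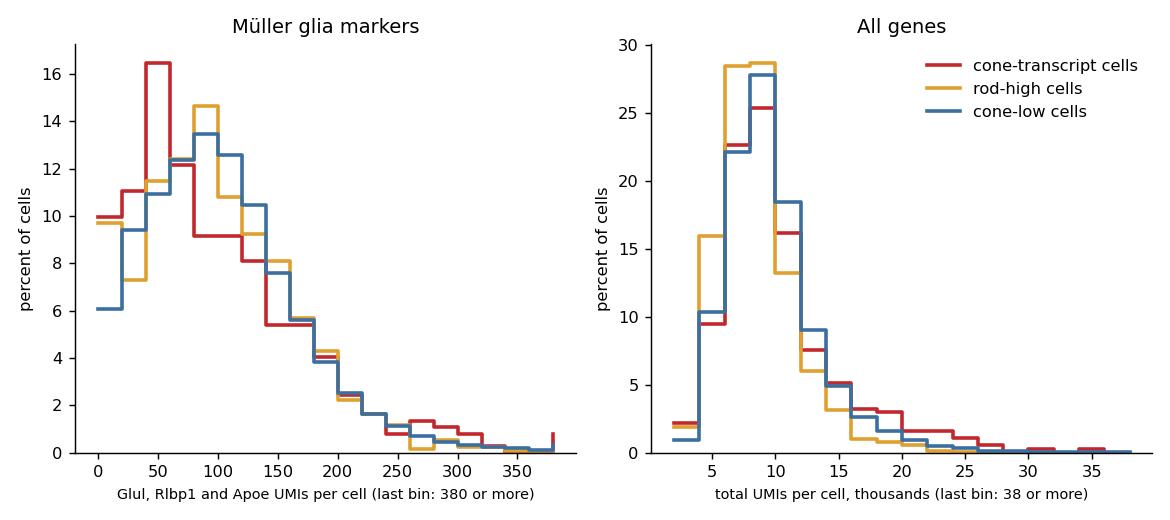
Shares of cells (percent) by UMIs of Glul, Rlbp1 and Apoe together (left) and by total UMIs (right), for cone-transcript cells (red), rod-high cells (orange) and cone-low cells (blue), pooled over runs. The Müller marker curves overlap over most of their range, with cone-transcript cells more frequent below 60 UMIs, and the total UMI curves have the same peak with a longer upper tail in cone-transcript cells.

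Along the Pde6h scale, cone and rod transcripts climbed together, while totals and the sum of Glul, Rlbp1 and Apoe moved less. The mean UMIs of the 13 other cone genes were 11.9, 25.1, 38.8 and 39.7 per cell in bands of 5 to under 10, 10 to under 20, 20 to under 40, and 40 or more Pde6h UMIs per 10,000. The median UMIs of the 15 rod genes other than Gngt1 were 24, 32.5, 38 and 38.5 in those bands. The medians of Glul, Rlbp1 and Apoe together were 84, 90, 77 and 69 UMIs. Apoe made up most of that sum, with medians of 60.5, 58.5, 47 and 44.5 UMIs. Rlbp1 alone had medians of 8, 9, 8 and 4.5 UMIs, so it was lowest in the top band (32 cells). Glul alone had 13, 12.5, 14 and 10 UMIs. Median totals were 8826, 9824, 9657 and 8316 UMIs, in bands that were themselves set by Pde6h over the cell's total. The cells with 0 Pde6h UMIs had medians of 12 rod UMIs, 76 Müller marker UMIs and 10033 total UMIs. Their medians of Glul, Rlbp1 and Apoe were 12, 11 and 45 UMIs.

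**Figure D4:**
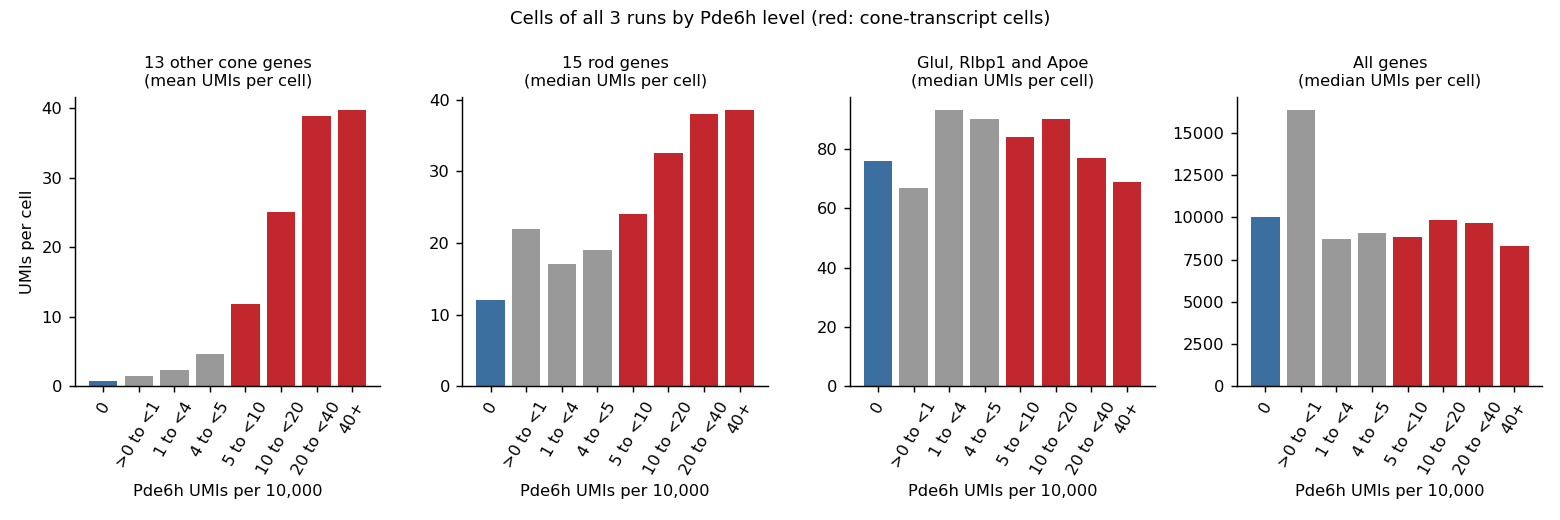
UMIs per cell of the 13 other cone genes (mean), of 15 rod genes without Gngt1, of Glul, Rlbp1 and Apoe together and of all genes (medians), by Pde6h UMIs per 10,000, for cells of all 3 runs; red bars are cone-transcript cells, the blue bar cells with 0 Pde6h UMIs and grey bars cells between. Cone genes go from 11.9 to 39.7 UMIs over the red bars, while the sum of the Müller markers, mostly Apoe, stays between 69 and 90.

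Rod transcripts were frequent in the cone-transcript cells. Gngt1 at 5 or more per 10,000 was found in 155 of 371 cone-transcript cells (41.8%), against 1299 of 22254 cells with 0 Pde6h UMIs (5.84%). By run the shares were 57.6%, 38.1% and 36.5% of cone-transcript cells, against 6.93%, 4.55% and 6.15% of cells with 0 Pde6h UMIs. Within the cone-transcript cells the share was 19.2%, 38.5%, 62.9% and 75% in the 4 Pde6h bands from low to high. Seen from the other side, 155 of the 1606 cells with Gngt1 at 5 or more were cone-transcript cells (9.65%). Mouse cones make little rod RNA themselves, and the source of the rod RNA was not tested.

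The 15 tested rod genes were all higher in cone-transcript cells than in cone-low cells, with a median log2 change of 1.12, but the Gngt1 limit that only the cone-low cells carry favours that direction. With the limits on Gngt1 and Igfbp2 put on both classes, 8 of 15 rod genes rose and the median was 0.52, in a comparison where 4.66% of 14003 genes were called higher and 4.66% lower. Sag, the rod arrestin, reached 722, 508 and 554 CPM in cone-transcript cells, against 125, 120 and 161 CPM in cone-low cells (log2 change 1.94 ± 0.08). Against rod-high cells, which were chosen by a rod gene, 14 of 15 rod genes were lower and 1 higher, as that choice favours. Nrl, the rod-determining factor, was lower there by a log2 change of -1.18 ± 0.11, while Pde6g and Sag were lower by smaller changes of -0.20 ± 0.06 and -0.30 ± 0.06, which turned to 0.19 and 0.088 with classes set at 3500 UMIs (Pde6g also to 0.067 with Pde6h at 10 or more). Without run 3 Pde6g (-0.09) and Sag (-0.23) were not called. Samd7, a repressor partner of CRX, was the 1 that was higher, at 0.87, and was not called without run 1 (0.75).

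Genes shared by rods and cones, and those of the photoreceptor synapse, were higher in cone-transcript cells. All 23 shared genes were higher than in cone-low cells, with a median log2 change of 2.40, and 20 of 23 were still called, at a median of 2.02, with the limits on both classes. Crx reached 129, 93.5 and 82.9 CPM in cone-transcript cells, against 11, 12.3 and 11.9 CPM in cone-low cells (log2 change 2.89 ± 0.12). Neurod1, a factor of photoreceptor survival, reached 262, 220 and 184 CPM in cone-transcript cells, against 18.3, 27.5 and 19.9 CPM in cone-low cells (log2 change 3.15 ± 0.10). Rbp3, which carries retinoids between photoreceptors and the pigment epithelium, changed by 2.90 ± 0.08. Against rod-high cells 12 of the 23 were higher and 4 lower, with a median of 0.35. Rpgrip1, of the connecting cilium, was higher by 2.04 ± 0.10, and Rom1 and Prph2, of the disc rim, were lower by -0.58 ± 0.06 and -0.49 ± 0.07.

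Of 12 tested synapse genes, 11 were higher in cone-transcript cells than in cone-low cells, with a median log2 change of 3.13, and Bsn, with 3 UMIs in cone-transcript cells, was not called (log2 change 0.85 ± 1.10). Slc17a7, which loads glutamate into vesicles, reached 155, 135 and 86.4 CPM in cone-transcript cells, against 11.6, 12.2 and 8.64 CPM in cone-low cells. Against rod-high cells 8 of 11 were higher and none was lower, with a median of 1.18. Cplx3, a complexin of ribbon synapses, gave the largest of these, at 145, 85.0 and 63.8 CPM in cone-transcript cells, against 4.65, 2.75 and 1.33 CPM in rod-high cells (log2 change 4.98 ± 0.20). Syp and Cacna1f, the synaptophysin and the calcium channel of the terminal, were each higher by 2.00 ± 0.17 and 2.00 ± 0.32. Among other genes, Mpp6 and Fyco1 were higher than in rod-high cells by 2.03 ± 0.14 and 1.74 ± 0.15. Sncb, a synuclein of nerve terminals, and Snap25, a vesicle fusion protein, were higher than in cone-low cells by 3.60 ± 0.10 and 3.50 ± 0.13.

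Most Müller genes were modestly lower as a share of RNA. Of 27 Müller genes none was higher and 23 were lower in cone-transcript cells than in cone-low cells, with a median log2 change of -0.44, beside -0.04 for all genes. Rlbp1 fell to 1043, 946 and 989 CPM in cone-transcript cells, against 1783, 1494 and 1587 CPM in cone-low cells (log2 change -0.89 ± 0.06). Crym, a thyroid hormone-binding protein that Müller glia make, changed by -1.02 ± 0.05, while Glul and Apoe changed by only -0.28 ± 0.06 and -0.27 ± 0.06. Glul reached 2334, 1734 and 1363 CPM in cone-transcript cells, against 2311, 1700 and 1683 CPM in cone-low cells. In CPM Glul was thus lower in cone-transcript cells of run 3 alone, and the classes overlapped. The log2 changes carry TMM scaling, which the CPM do not. Against rod-high cells, 19 of 27 were lower and none higher, with a median of -0.27. Against all cells with 0 Pde6h UMIs and no other limit, 9 of 27 were higher and 7 lower with a median of 0.03, beside 14.4% higher and 19% lower of all 14984 genes tested there. The fall of the list was therefore not seen against every choice of other cells, and the part of each limit was not tested. With total UMIs in place of TMM scaling, the median of all genes moved to 0.14 and 1 Müller gene was higher and 15 were lower, beside 17.1% higher and 5.36% lower of all genes. Without run 3 neither Glul (-0.15) nor Apoe (-0.18) was called against cone-low cells.

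Microglial transcripts were nearly absent from the cone-transcript cells, but this was not shown to be particular to them. Against rod-high cells 0 of the 8 genes of the microglia list were tested, since none passed the low-count filter. C1qb and C1qc, of complement C1q, had 0 UMIs in the 371 cone-transcript cells, against 3608 and 2971 UMIs in the 14418 cone-low cells. C1qa had 1 UMI against 3568 in those classes. The cone-low cells included microglia-gated cells, and without them 14375 cells remained. How much of the C1q counts came from the microglia-gated cells was not tested. Cone-low cells carried no limit on microglial genes, and the 8 genes of the microglia list summed to 1.05, 1.7 and 0.580 CPM in cone-transcript cells, against 235, 57.7 and 22.5 CPM in cone-low cells. Spp1, which activated microglia make, had 2.09, 2.55 and 0.580 CPM in cone-transcript cells, against 232, 86.4 and 1.91 CPM in cone-low cells, with most of the gap in runs 1 and 2. Among lists of other neurons, 2 of 8 tested bipolar genes, Cabp5 and Gng13, were higher than in cone-low cells, on 10 and 25 UMIs in cone-transcript cells, with both levels highest in run 1. Gng13 was not called without run 1 (0.41, in place of 1.19), nor Cabp5 without run 3 (2.20, in place of 2.45). None of 5 amacrine, 4 ganglion cell and 3 horizontal cell genes was called in edgeR or in DESeq2, and at an unadjusted p under 0.05 edgeR gave 0, 1 higher and 1 lower.

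Of 12 tested neurogenic genes, 4 were higher in cone-transcript cells than in cone-low cells and 3 were lower, with a median log2 change of 0.12. Those that were higher were Neurod1, Neurod4, Insm1 and Prdm1, factors that developing photoreceptors also use, and Neurod4 rested on 8 UMIs in cone-transcript cells and was higher in 2 of the 3 runs. Prdm1, which steers precursors toward photoreceptors, rested on 26 UMIs in cone-transcript cells and was higher by 2.86 ± 0.47. Neurog2, a proneural factor, had 6.28, 1.70 and 5.22 CPM in cone-transcript cells, against 20.6, 10.3 and 14 CPM in cone-low cells, and was lower by -1.91 ± 0.29. Sox4 was lower by -0.74 ± 0.10. Hes6 was lower by -0.51 ± 0.16, a call that was lost when any 1 run was left out (-0.57 to -0.40) and a value that went to 3.4e-05 against all cells with 0 Pde6h UMIs. Insm1, at 2.64, was not called without run 3 (1.99). Against rod-high cells 2 of 9 tested neurogenic genes were called higher and 0 lower, with a median of -0.17, beside 5.31% higher and 3.27% lower of all genes. At an unadjusted p under 0.05 edgeR gave 3 lower there, so the falls were not called against the rod-high cells.

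Of 16 reactive gliosis genes, 2 were higher in cone-transcript cells than in cone-low cells and 10 were lower, with a median log2 change of -0.22. Gfap, the intermediate filament of reactive glia, reached 597, 502 and 557 CPM in cone-transcript cells, against 950, 728 and 631 CPM in cone-low cells (log2 change -0.64 ± 0.07). Lgals3, a galectin, changed by -1.08 ± 0.08. Edn2, an endothelin that stressed photoreceptors make, was 1 of the 2 that were higher, at 8.37, 12.8 and 6.38 CPM in cone-transcript cells, against 1.75, 2.11 and 2.23 CPM in cone-low cells (log2 change 1.94 ± 0.36). Against rod-high cells Edn2 was not called, at a log2 change of 0.07 ± 0.33. Against all cells with 0 Pde6h UMIs and no other limit 6 of 16 were higher and 5 lower, with a median of 0.05, beside 14.4% higher and 19% lower of all genes.

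Cell cycle and YAP target genes had no direction that held. Of 14 cycle genes 12 were higher in cone-transcript cells than in cone-low cells, with a median log2 change of 1.37, but the limits on Gngt1 and Igfbp2 that the cone-low cells alone carry bear on this, and the separate part of each limit was not tested. Igfbp2 is itself on the YAP target list. Hmgb2, a chromatin protein of dividing cells, reached 195, 158 and 230.1 CPM in cone-transcript cells, against 69.7, 82.9 and 102 CPM in cone-low cells. With the limits on both classes 0 of 14 were higher and 2 lower, with a median of -0.68, and against all cells with 0 Pde6h UMIs all 14 were lower, with a median of -2.04. Against rod-high cells 0 of 14 were called in edgeR, also 0 at an unadjusted p under 0.05 and 0 in DESeq2 (median 0.05). Of 11 tested YAP targets, 4 were higher than in cone-low cells (Ankrd1, Amotl2, Lats2 and Nuak2) and 1 lower. Ankrd1 rested on 18 UMIs in cone-transcript cells and was higher in 2 of the 3 runs, and without run 3 neither Ankrd1 (1.18) nor Lats2 (0.78) was called. The gene that was lower was Cyr61, at -0.16 ± 0.06, a call that was lost when any 1 run was left out (-0.22 to -0.0037) and a sign that turned to 0.032 with total UMIs in place of TMM scaling. With the limits on both classes 0 YAP targets were higher and 1, the cyclin Ccnd1, was lower, and against all cells with 0 Pde6h UMIs 0 were higher and 10 lower, beside 14.4% higher and 19% lower of all genes. Igfbp2 at 2 or more per 10,000 was found in 44 of 371 cone-transcript cells (11.9%), against 30.3% of cells with 0 Pde6h UMIs. By run these shares were 14.1%, 12.4% and 10.5% of cone-transcript cells, against 31.4%, 31.0% and 28.6% of cells with 0 Pde6h UMIs. Cells with Igfbp2 at 2 or more were also deeper, with a median of 18916 UMIs against 9130 in the other cells. At 3500 UMIs, at least 2 Pde6h UMIs were seen in 0.754% of cells with Igfbp2 at 2 or more and in 2.18% of the others.

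**Figure D5:**
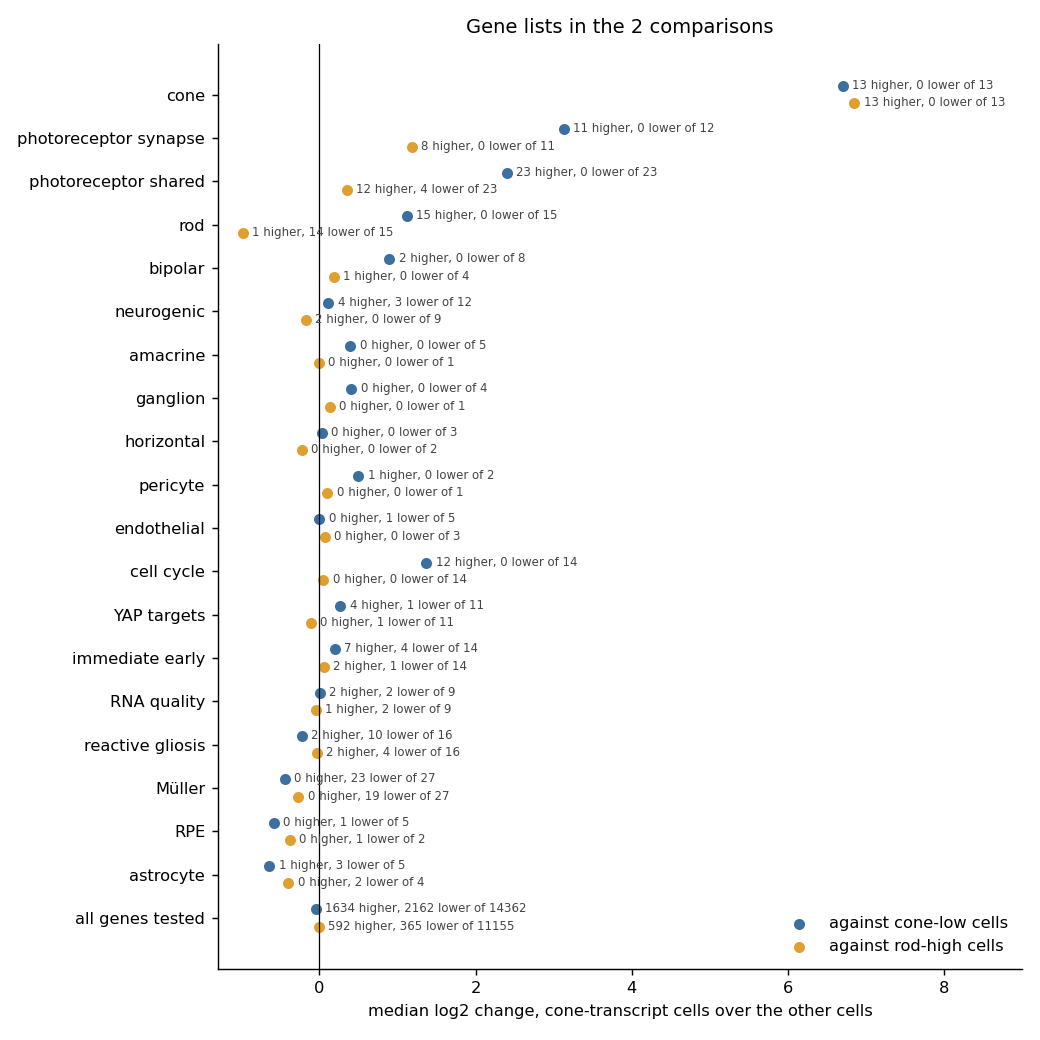
Median log2 change of each gene list in cone-transcript cells over cone-low cells (blue) and over rod-high cells (orange), with the genes called higher and lower (edgeR, adjusted p under 0.05) of those tested written beside each point. The cone list lies at 6.70 and 6.85, the synapse list at 3.13 and 1.18, and the rod list at 1.12 and -0.98; the rod, cell cycle and YAP target positions depend on the limits that define the other classes.

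The cone-transcript cells were mostly missing from the table the authors normalized. Their log table held 38 of the 371 cells (3, 15 and 20 in runs 1, 2 and 3), a mean of 9.62% ± 5.52 over runs, against 50.7% ± 2.49 of cone-low cells. Rod-high cells were kept at 11.6% ± 4.03, and all cells at 54.7% ± 2.11. How the authors chose those cells is not given in the sources used here. Barcodes shared between pairs of runs numbered 95, 83 and 108, and 2, 3 and 2 of them marked a cone-transcript cell in 1 of the runs, with none in both.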

How the data were processed

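The deposited UMI counts per gene and cell come, per the labels and the submitters' processing notes, from 10X Chromium 3' v2 libraries of tdTomato-sorted cells and Cell Ranger on mm10. The authors also deposited natural log values made with Seurat 2.3.4, which equal ln(1 + 10000 × count / total) to within 5.00e-07 for 13511 of 24695 cells and served to mark the cells kept. Of these, 24672 passed (500 genes or more, 20% mitochondrial UMIs or less; lowest total 3538 UMIs), and no doublet caller was run. Counts were summed per class and run and tested in edgeR 4.0.16 (quasi-likelihood, filterByExpr, TMM, run as a block, Benjamini-Hochberg over all genes tested), with DESeq2 1.42.0 as an alternative (R 4.3.3). The block pairs the 2 classes of 1 library. For equal depth, cells were thinned to 3500 UMIs. Scripts were tested on simulated data. Named genes were the 10 largest called rises and falls of at least 1 on the log2 scale with a mean of at least 50 CPM and 1 direction in all 3 runs, the cone list, Glul, Rlbp1, Apoe and up to 4 called genes by level of each other list; others are given as list examples chosen after their values were seen. The members and lists were chosen with earlier results of these data known. Some genes of the lists are counted with their list but not reported singly here.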

Additional observations from a re-analysis of the deposited data

How the results depend on the processing

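The 13 tested cone genes were higher in both comparisons under each alternative except these: 12 of 13 against cone-low cells without the run block and without run 3, 8 of 12 among the authors' cells there, 12 of 13 against rod-high cells with DESeq2 and without run 3, 12 of 12 there with equal cell numbers and with Gngt1 under 5 in the cone-transcript cells (Cnga3 not tested), and 7 of 8 among the authors' cells; every gene tested was positive but Ccdc136 in the authors' cells. Counts of called genes moved more, and with no replicate block (pairing of classes by run) they were 1316 against cone-low cells and 238 against rod-high cells, in place of 3796 and 957. Against cone-low cells the counts were 2102 with DESeq2, 1831 with equal cell numbers, 265 among the authors' cells, 1304 with the Gngt1 and Igfbp2 limits on both classes, and 2069 to 2891 without 1 run. Against rod-high cells they were 297 with DESeq2, 618 with Pde6h at 3 or more, 363 with Gngt1 under 5 in the cone-transcript cells, 470 with equal cell numbers, 25 among the authors' cells, and 514 to 735 without 1 run. Total UMIs without TMM gave 2454 higher and 770 lower against cone-low cells (76.1% higher) in place of 1634 and 2162, and 760 and 192 against rod-high cells in place of 592 and 365. Among the authors' cells the log2 ratio of medians averaged over runs was -0.11 for total UMIs and -0.96 for Glul, Rlbp1 and Apoe, with 3 cone-transcript cells in run 1 (means of the run medians 52.8 in cone-transcript cells and 80 in cone-low cells); with both limits on both classes the Müller marker ratio was 0.16. Unthinned shares were 64.5% for Arr3, 66.6% for Opn1mw and 90.6% for Gngt2, in place of 37.6%, 50.5% and 75.4%.

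Log2 changes that turned against cone-low cells are these, and the cause was not tested beyond the choice named. With 0 Pde6h UMIs as the sole limit on the other cells: Glul 0.38, Apoe 0.43, Dbi 0.10, Rrh 0.082, Kdr 0.37, Rgs5 -0.77, Hes6 3.4e-05, Amotl2 -0.85, Lats2 -0.97, Nuak2 -1.22, Hmgb2 -1.20, Pcna -1.06, Rrm2 -2.39, Birc5 -2.02, Mt1 0.12, Fos 0.39, Jun 0.30, Ier2 0.48, Klf6 0.32 and Malat1 0.16. With both limits on both classes: Nuak2 -0.13, Hmgb2 -0.18, Pcna -0.19, Rrm2 -1.14 and Birc5 -0.64. An alternative chosen after seeing the data kept only cone-transcript cells with Glul, Rlbp1 and Apoe at 50 or more per 10,000 (271 of 371), which selects 1 class by a measured outcome. It gave 2709 called genes, 0 of 14 cycle genes higher and 4 lower (median -0.75), 4 of 27 Müller genes higher and 13 lower (8.35% and 10.9% of all genes), and Glul 0.12, Apoe 0.21, Rgs5 -1.62, Cyr61 0.029, Hmgb2 -0.013, Pcna -0.025, Rrm2 -0.64, Birc5 -1.06, Fos 0.030, Jun 0.017, Ier2 0.10 and Klf6 0.041. Among the authors' cells: Ccdc136 -0.21, Ctbp2 -0.11, Rgs5 -8.09, mt-Co3 -0.47 and mt-Co1 -0.42. With total UMIs: Cyr61 0.032, Fos 0.0083 and Klf6 0.011. With Pde6h at 10 or more Rgs5 was -2.13, and leaving out 1 run it ran from -0.76 (without run 1) to 1.38.

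Against rod-high cells these turned: Pde6g 0.067 with Pde6h at 10 or more; Pde6g 0.19 and Sag 0.088 with classes set at 3500 UMIs; Unc119 -0.18 and Igfbp2 0.089 with Gngt1 under 5 in the cone-transcript cells; and among the authors' cells Unc119 -0.35, Stx3 -0.65, Clu 0.15, Crym 0.19, Aldh1l1 0.27, Jun 0.028, Malat1 0.28 and mt-Co1 -0.15. Leaving out 1 run, Igfbp2 ran from -0.59 to 0.032 (without run 3). The equal cell numbers, the total UMI scaling and the leaving out of microglia-gated cells were also chosen after seeing the data. Sparse counts limit the cone-low ratios and the authors' cells (38 cone-transcript cells).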
